A study of Mus musculus with 45 samples.

Results

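The 10 genes described here, Fos, Fosb, Jun, Junb, Jund, Atf3, Egr1, Ier2, Ier3 and Dusp1, are immediate early genes that are also widely used as a sign of tissue dissociation. They were chosen by name, with earlier results of these data known. All 10 were among the 14020 genes tested, of 36153 genes with a read. Small intestinal tuft cells were sorted as live EpCAM+ Siglec-F+ cells from single male C57BL/6J mice and were sequenced in bulk by Smart-seq2. The study's methods write CD45+ in this gate, but also say that cells carrying CD45 were excluded. The mice were 5 weeks old at arrival and housed at thermoneutrality. The 9-week set held 11 libraries of the reference diet (RFD, 10% fat) and 11 of the high fat diet (HFD, 60% fat), and the 22-week set held 11 and 12. The labels name 9 weeks for each of the 45 libraries, and the 22 weeks were taken from the study's methods for the libraries titled LTF, so feeding time and set of libraries cannot be told apart. No mouse carried a transgene, and mice on RFD were the controls. The mice of each group came from several cages, killed on consecutive days.

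Immediate early genes are transcribed within minutes of a stimulus from factors that the cell already holds, with no need for new protein. Growth factor and stress signals reach them through the MAP kinases, which act on SRF with its ELK partners at CArG boxes and on CREB at cyclic AMP response elements. Fos and Jun proteins pair to form AP-1, ATF3 is a stress-induced partner and repressor, EGR1 is a zinc finger factor, and DUSP1 is a phosphatase that switches the MAP kinases off again. Warm enzymatic dissociation and cell sorting are themselves stimuli for these genes. Here the epithelium was released with EDTA at body temperature and dispersed with dispase before it was stained in the cold and sorted, so the levels below describe cells that had passed through these steps in every group.

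The promoters of 8 of the 10 genes, 250 bases before to 50 after the start, were taken from RefSeq (build GRCm38.p6), and 4 are shown because they belong to both genes called at 9 weeks (Fos and Jun) and to both genes in which a searched motif was found (Dusp1 and Fosb). Motifs were searched on both strands and are in capitals: the CRE (TGACGTCA), the AP-1 site (TGANTCA), the EGR site (GCGNGGGCG) and the CArG box.
Fos, chr12:85473640-85473939, plus strand: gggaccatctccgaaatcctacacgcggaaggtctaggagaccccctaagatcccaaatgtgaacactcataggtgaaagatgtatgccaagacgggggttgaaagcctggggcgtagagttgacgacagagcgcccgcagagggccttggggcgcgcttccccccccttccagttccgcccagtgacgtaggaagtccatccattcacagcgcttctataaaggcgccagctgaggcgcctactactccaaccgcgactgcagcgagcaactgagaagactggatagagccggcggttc
Jun, chr4:95052173-95052472, minus strand: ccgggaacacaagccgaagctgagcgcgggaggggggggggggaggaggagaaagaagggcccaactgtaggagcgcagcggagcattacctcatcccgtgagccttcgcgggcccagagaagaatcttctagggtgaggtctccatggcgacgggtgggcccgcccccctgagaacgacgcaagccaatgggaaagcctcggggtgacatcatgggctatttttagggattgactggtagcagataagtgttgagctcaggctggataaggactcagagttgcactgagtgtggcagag
Dusp1, chr17:26508423-26508722, minus strand: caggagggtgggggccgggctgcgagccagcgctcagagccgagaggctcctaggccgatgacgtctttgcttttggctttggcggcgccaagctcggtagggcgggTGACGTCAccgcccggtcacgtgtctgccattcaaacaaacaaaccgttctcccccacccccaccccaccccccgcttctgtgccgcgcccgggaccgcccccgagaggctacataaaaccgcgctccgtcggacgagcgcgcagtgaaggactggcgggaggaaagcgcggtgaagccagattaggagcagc
Fosb, chr7:19309996-19310295, minus strand: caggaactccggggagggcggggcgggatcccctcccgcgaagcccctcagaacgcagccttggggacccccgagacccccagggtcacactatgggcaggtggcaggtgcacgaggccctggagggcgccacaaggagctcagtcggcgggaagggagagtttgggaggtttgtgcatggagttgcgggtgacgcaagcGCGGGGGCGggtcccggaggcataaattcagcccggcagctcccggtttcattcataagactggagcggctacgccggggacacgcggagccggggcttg
The Dusp1 promoter held a CRE beginning 143 bases before the start, and the Fosb promoter held an EGR site beginning 50 bases before it, with no overlap between motifs. The other 6 of the 8 promoters held none of the 4 motifs in this window. The window of Jund (chr8:70697489-70697788) ended before the gene position given below (from 70698949), so it did not cover that start. The windows of Dusp1 and Atf3 (chr1:191183284-191183583) lay inside the gene positions given below. On the minus strand those positions begin at 26562128 and 191218039, which the windows did not cover. The start named for the Dusp1 CRE is therefore the one in RefSeq. Among all 32851 promoters in the table, 1.79% held a CRE, 5.55% an EGR site, 7.81% an AP-1 site and 1.63% a CArG box, and a match of letters is a description, not a bound site.

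Libraries held between 189308 and 4690210 reads in genes, and 2 of them, 1 of each diet at 9 weeks, were below 500000. The tuft cell markers Dclk1 and Trpm5 were detected in every library. Paneth cell markers (7 genes, among them Lyz1 and Defa24, which encode antimicrobial proteins of the crypt base) summed to 54.8 to 101170 CPM (a gene's reads scaled to a common library total, for marker sums without normalization factors) in the RFD libraries and 111 to 323950 in the HFD libraries at 9 weeks, with medians of 2443 and 28203. The 22-week sums lay between 95.9 and 48006 (RFD) and between 32.5 and 132040 (HFD). A Paneth gene was the most abundant transcript in 4 libraries, those of HFD mice 8, 70 and 80 at 9 weeks and HFD mouse 7 at 22 weeks. Those of mice 8, 70 and 80 were also poor in tuft markers, with Dclk1 at 256, 257 and 33.8 CPM (with normalization factors). The 9-week RFD libraries ranged from 411 (mouse 10) to 1843 CPM (mouse 23). Dclk1 was low as well in HFD mice 6 and 50, at 272 and 203 CPM, whose libraries no Paneth gene led. Mitochondrially encoded genes took over 25% of the reads of 3 libraries at 9 weeks, those of RFD mice 10 and 40 and HFD mouse 50. In bulk samples, fewer cells of a type and less RNA per cell cannot be told apart.

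In TPM, a scale of transcripts that corrects for gene length, Junb was highest with a median of 55.3 over the 45 libraries, followed by Ier2 at 47.9, Fos at 36.0 and Jun at 25.9. Dusp1 followed with a median of 10.8 TPM, Egr1 with 5.83, Ier3 with 3.36, Atf3 with 3.27, Fosb with 1.07 and Jund with 0.85. Neighbours in this order were compared within each library on the log2(TPM + 1) scale. Jun stood above Dusp1 by 1.22 ± 1.10 (mean ± SD, n = 45) and in 40 of 45 libraries, and this was the only step of the 9 whose mean was larger than its SD. By this rule Junb, Ier2, Fos and Jun formed the upper part of the order and the other 6 the lower part. The rule describes the spread between libraries and does not test a difference. Inside the parts, Fos stood above Jun in 38 of 45 libraries (0.52 ± 0.71) and Dusp1 above Egr1 in 36 of 45 (0.65 ± 1.03). In the other steps inside the parts the gene higher in the order stood above in 25 to 31 of 45 libraries. Jund, Fosb and Ier3 rested on few reads, at most 24, 47 and 71 in a library, and each was at 0 in some libraries. Exons of Jun, Junb, Jund and Dusp1 overlap a gene on the other strand (Junos, Prdx2, Gm11175 and Ergic1), and since the Smart-seq2 libraries do not keep strand, reads of each pair cannot be told apart there.

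The first comparison asked how the 10 genes differed between the diets within each feeding time, in CPM with TMM normalization factors and in the quasi-likelihood test of edgeR, adjusted by Benjamini-Hochberg over all 14020 genes, where a call means an adjusted p under 0.1. After 9 weeks, Fos and Jun were called, both higher on HFD, and the other 8 were not. The 2 of 10 stand against 3.07% of all genes tested that were called in this comparison. After 22 weeks none of the 10 was called, against 0.728% of all genes tested.

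**Figure D1:**
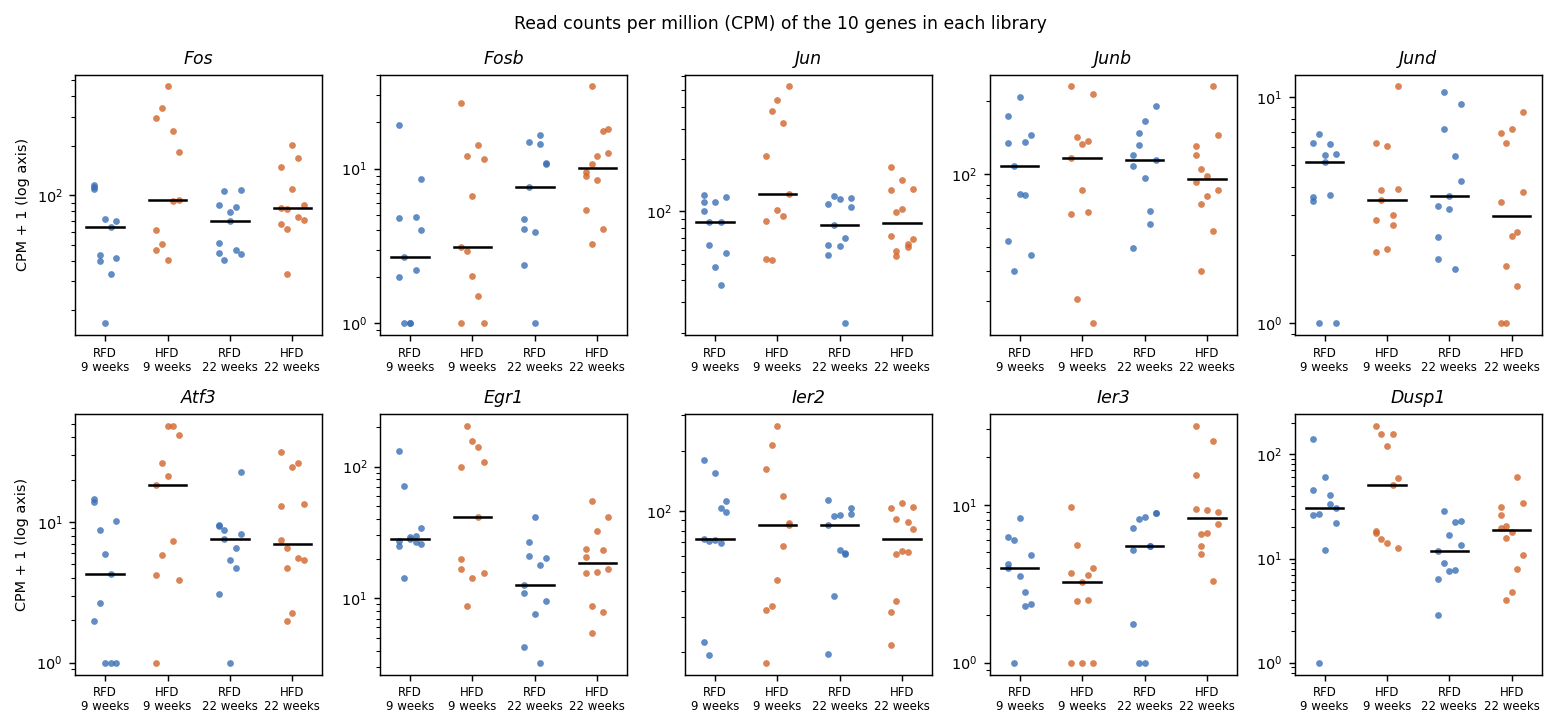
CPM plus 1 (log axis) of each of the 10 genes in every library, by diet and weeks of feeding. Each point is 1 library and the black lines are medians. At 9 weeks the HFD libraries spread wider than the RFD libraries for Fos and Jun, with 5 and 6 of 11 above every RFD library, while Egr1 and Dusp1 sat lower at 22 weeks.

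Among the Fos family, Fos (ENSMUSG00000021250, chr12:85473890-85477273) encodes the AP-1 partner that is induced fastest. At 9 weeks its RFD libraries ranged from 15.6 CPM (mouse 21) to 114 CPM (mouse 1) with a median of 62.8, and its HFD libraries from 39.5 CPM (mouse 7) to 456 CPM (mouse 80) with a median of 92.8. The groups overlapped: 5 of 11 HFD libraries, those of mice 8, 60, 63, 70 and 80, lay above every RFD library, and 4 lay below the RFD median. The mean was 64.1 ± 34.3 CPM in the RFD libraries and 172 ± 142 CPM in the HFD libraries (SD, 11 of each), with a log2 fold change of 1.46 (SE 0.42, edgeR adjusted p = 0.0811). At 22 weeks the libraries ranged from 39.6 to 106 CPM on RFD (median 68.7) and from 32.1 to 199 CPM on HFD (median 82.0), and 4 of 12 HFD libraries lay above every RFD library. The log2 fold change there was 0.50 (SE 0.26, edgeR adjusted p = 0.511).

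Fosb (ENSMUSG00000003545, chr7:19302696-19310051), a slower and scarcer relative of Fos, ranged at 9 weeks from 0 to 18.2 CPM on RFD (median 1.67) and from 0 to 25.5 CPM on HFD (median 2.14). It was at 0 reads in 3 RFD and 2 HFD libraries, and only the HFD library of mouse 60 lay above every RFD library. At 22 weeks it ranged from 0 to 15.6 CPM on RFD (median 6.60), while the HFD libraries had a lowest value of 2.24 CPM and a median of 9.14. Its log2 fold changes were 0.86 (SE 0.85) at 9 weeks and 0.59 (SE 0.49) at 22 weeks, and neither was called (edgeR adjusted p = 0.629 and 0.734).

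Among the Jun family, Jun (ENSMUSG00000052684, chr4:95049034-95052222), the main activating partner of Fos in AP-1, gave the smallest p of the 10 at 9 weeks. Its RFD libraries ranged from 36.8 CPM (mouse 22) to 123 CPM (mouse 24) with a median of 85.6, and its HFD libraries from 51.6 CPM (mouse 6) to 525 CPM (mouse 63) with a median of 125. Of the HFD libraries, 6 of 11 lay above every RFD library and 2 below the RFD median. The mean was 85.6 ± 30.6 CPM in the RFD libraries and 217 ± 170 CPM in the HFD libraries (SD, 11 of each), with a log2 fold change of 1.38 (SE 0.37, edgeR adjusted p = 0.0747). At 22 weeks the libraries ranged from 21.6 to 122 CPM on RFD and from 54.4 to 180 CPM on HFD with medians of 82.1 and 84.8, and 6 of 12 HFD libraries lay above the RFD median and 6 below it. The log2 fold change at 22 weeks was 0.19 (SE 0.26, edgeR adjusted p = 0.847).

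Junb (ENSMUSG00000052837, chr8:84974484-84978718), a Jun relative that can dampen AP-1, had nearly the same range on both diets. At 9 weeks it ranged from 38.9 to 208 CPM on RFD (median 107) and from 23.2 to 229 CPM on HFD (median 115). Its log2 fold changes were 0.06 (SE 0.33) at 9 weeks and -0.16 (SE 0.25) at 22 weeks, and neither was called (edgeR adjusted p = 0.948 and 0.881). Jund (ENSMUSG00000071076, chr8:70698949-70700616), the Jun relative that many cells keep at a steady level, did not exceed 10.1 CPM in any library. Its log2 fold changes were -0.09 (SE 0.58) at 9 weeks and -0.42 (SE 0.61) at 22 weeks, both uncalled (edgeR adjusted p = 0.960 and 0.867).

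Atf3 (ENSMUSG00000026628, chr1:191170296-191218039), the stress-induced member of the ATF family, had the largest fold change of the 10 at 9 weeks but did not pass. Its RFD libraries ranged from 0 to 13.6 CPM (median 3.24) and its HFD libraries from 0 to 47.3 CPM (median 17.4). The RFD libraries held few reads of Atf3, with a median of 2 and 3 of 11 libraries at 0. The median on HFD was 25 reads. Of the HFD libraries, 6 of 11 lay above every RFD library. The log2 fold change was 2.07 (SE 0.75, edgeR adjusted p = 0.152). At 22 weeks the medians were 6.60 (RFD) and 5.95 CPM (HFD), with a log2 fold change of 0.58 (SE 0.54, edgeR adjusted p = 0.767).

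Egr1 (ENSMUSG00000038418), the zinc finger factor that MAP kinase signals induce through SRF, ranged at 9 weeks from 13.3 to 131 CPM on RFD (median 27.0) and from 7.71 to 204 CPM on HFD (median 40.6). The lowest and the highest library were both on HFD, and 3 of 11 HFD libraries lay above every RFD library. The log2 fold change was 1.03 (SE 0.49, edgeR adjusted p = 0.268). At 22 weeks Egr1 ranged from 2.23 to 40.3 CPM on RFD and from 4.47 to 53.4 CPM on HFD, with a log2 fold change of 0.50 (SE 0.41, edgeR adjusted p = 0.732).

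Ier2 (ENSMUSG00000053560, chr8:84661331-84662852), an immediate early gene of less defined function, ranged at 9 weeks from 18.3 to 178 CPM on RFD (median 71.8) and from 16.7 to 265 CPM on HFD (median 84.1). Its log2 fold changes were 0.25 (SE 0.41) at 9 weeks and -0.10 (SE 0.28) at 22 weeks, and neither was called (edgeR adjusted p = 0.808 and 0.943). Ier3 (ENSMUSG00000003541, chr17:35821684-35822923), which acts in cell survival, was the only one of the 10 to lie lower on HFD at 9 weeks and higher on HFD at 22 weeks. At 22 weeks it ranged from 0 to 7.84 CPM on RFD (median 4.47) and from 2.29 to 30.7 CPM on HFD (median 7.26), and 6 of 12 HFD libraries lay above every RFD library. The log2 fold changes were -0.36 (SE 0.70) at 9 weeks and 1.08 (SE 0.53) at 22 weeks, both uncalled (edgeR adjusted p = 0.838 and 0.487).

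Dusp1 (ENSMUSG00000024190, chr17:26505590-26562128), the phosphatase that ends MAP kinase signalling, ranged at 9 weeks from 0 to 141 CPM on RFD (median 29.3) and from 11.6 to 187 CPM on HFD (median 49.9). The HFD libraries of mice 8, 60, 70 and 80 held the highest values on that diet, between 119 and 187 CPM, and the next was at 58.1 CPM. The log2 fold change was 0.89 (SE 0.50, edgeR adjusted p = 0.357). At 22 weeks Dusp1 ranged from 1.87 to 27.8 CPM on RFD and from 2.98 to 60.3 CPM on HFD, with a log2 fold change of 0.67 (SE 0.44, edgeR adjusted p = 0.631).

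**Figure D2:**
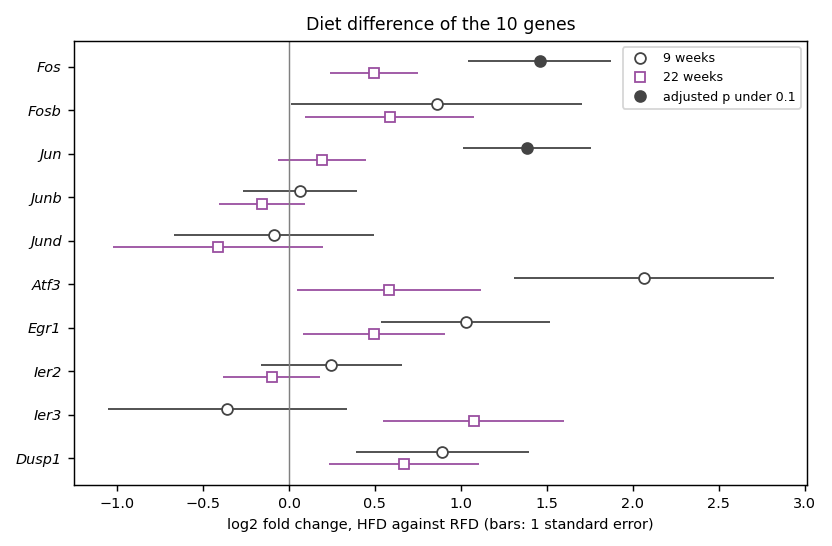
Log2 fold change between HFD and RFD of each gene (x axis), with bars of 1 standard error, at 9 weeks (circles) and 22 weeks (squares). Filled symbols mark an adjusted p under 0.1, which Fos and Jun at 9 weeks reached. The point estimates at 9 weeks run from -0.36 for Ier3 to 2.07 for Atf3.

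Counted together, 8 of the 10 genes had a positive log2 fold change at 9 weeks with a median of 0.87, against 47.3% of all genes and a median of -0.05. Of the 10, 4 (Fos, Jun, Atf3 and Egr1) had an unadjusted p under 0.05, against 18.2% of all genes tested. At 22 weeks 7 of 10 were positive with a median of 0.50, against 47.9% of all genes and a median of -0.03, and 0 of 10 had an unadjusted p under 0.05 in edgeR's test, against 10.3% of all genes. DESeq2 also called 0 of the 10 there. Whether the diet effect differed between the feeding times was tested as an interaction in edgeR over all 45 libraries. None of the 10 was called, against 0.00713% of all genes, and 1 of the 10, Jun, had an unadjusted p under 0.05, against 3.27% of all genes. Its log2 fold change was smaller by 1.12 at 22 weeks (difference -1.12, SE 0.46, unadjusted p = 0.0175 and adjusted p = 1.00 in edgeR), so a different response at the 2 times was not shown.

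The spread between libraries was described by the SD of log2 CPM within a group. At 9 weeks it was larger on HFD than on RFD in 8 of the 10 genes, against 35.4% of all genes, with a median SD over the 10 of 0.922 on RFD and 1.25 on HFD, where the medians over all genes were 1.09 and 0.948. At 22 weeks it was larger on HFD in 6 of 10, against 4762 of all 14020 genes, and the medians over the 10 were 0.919 and 0.947. The difference in spread was not tested.

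The calls of Fos and Jun at 9 weeks did not hold under several choices of libraries and covariates. The 3 HFD libraries led by a Paneth gene, of mice 8, 70 and 80, gave 17.4%, 23.4% and 32.4% of their reads to the 7 Paneth markers, and their ranks among the 22 libraries in Fos were 4, 2 and 1. Without these libraries the log2 fold change was 0.72 for Fos (edgeR adjusted p = 0.641) and 0.86 for Jun (edgeR adjusted p = 0.538). In that fit 0 of the 10 genes was called, and the calls over all genes went from 431 to 2. It also compared fewer HFD libraries, which can by itself lower the number of calls. With the mean log2 CPM of the Paneth markers as a covariate the log2 fold change was 0.67 for Fos (edgeR adjusted p = 0.659) and 0.88 for Jun. Those of Egr1 and Dusp1 were -0.09 and -0.13. The libraries of HFD mice 60 and 63, which also lay above every RFD library in Fos, were not led by a Paneth gene. They gave 6.81% and 2.82% of their reads to the Paneth markers, ranks 6 and 8 of the 22 libraries. Mouse 63 had the highest Jun level of the set. RFD mice 20 and 10 and HFD mouse 50, at ranks 4, 5 and 7 in Paneth reads, ranked 8, 12 and 9 in Fos. Of the 7 Paneth markers, 5 were present in every library, and Defa22 and Mmp7 were at 0 in some. The part of these cells in the difference between the diets was not tested.

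The calls also ended, with 0 of 10 genes called, when the mean log2 CPM of tuft markers or of T cell markers entered as a covariate, and when the 3 libraries with over 25% mitochondrial reads were left out. With T cell markers the log2 fold change of Fos was not smaller than the 1.46 given above (edgeR adjusted p = 0.181), and that of Jun was 1.20 (edgeR adjusted p = 0.220). With tuft markers they were 0.92 for Fos (edgeR adjusted p = 0.603) and 1.22 for Jun (edgeR adjusted p = 0.457). Without the mitochondrial libraries they hardly moved, with 1.44 for Fos (edgeR adjusted p = 0.115) and 1.35 for Jun (edgeR adjusted p = 0.102). Leaving out single libraries ended the call of Jun in 10 of 22 cases (RFD mice 1, 3, 21, 22, 23, 24 and 84 and HFD mice 8, 70 and 80), with fold changes from 1.17 to 1.49 on the log2 scale over all 22 and an edgeR adjusted p of at most 0.159. The call of Fos ended in these 10 cases and in 5 more (RFD mouse 40 and HFD mice 6, 50, 60 and 62), with log2 fold changes of at most 1.57 over all 22 and an edgeR adjusted p of at most 0.193, reached without HFD mouse 80. The summed tuft markers (14 genes, 10 of them in every library) ranged from 2773 to 23655 CPM on RFD and from 187 to 23074 on HFD at 9 weeks, with medians of 16395 and 7906. T cell markers (11 genes, none in every library) were scarce, with ranges of 0.954 to 70.5 and 0.421 to 81.4 CPM and medians of 20.3 and 1.94. Of these 11 genes, the 7 that were tested entered the covariate. Stem and cycling markers (Lgr5, Olfm4, Mki67 and Top2a, none in every library) moved as well, with ranges of 198 to 1740 CPM on RFD and 135 to 3400 CPM on HFD and medians of 332 and 1358 at 9 weeks, most of it Olfm4 (medians of 207 and 1100 CPM). The part of the stem and cycling markers in the calls was not tested.

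**Figure D3:**
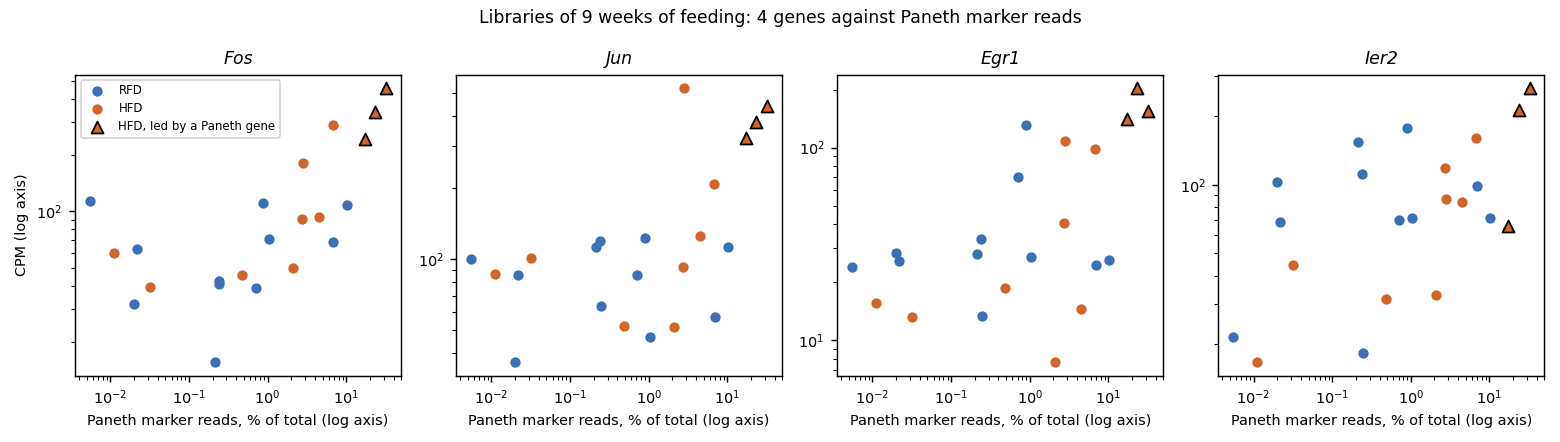
Levels of Fos, Jun, Egr1 and Ier2 in CPM (y axis, log) against the percentage of reads on 7 Paneth markers (x axis, log) in the 22 libraries of 9 weeks of feeding. Each point is 1 library, and triangles are the 3 HFD libraries led by a Paneth gene. All 3 lie at the upper right for Fos, Jun and Egr1, while HFD mouse 63 is highest for Jun at 2.82% Paneth reads.

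The second question was how the genes deviated together between libraries of the same diet. Levels in log2 CPM were centred within diet, and Pearson's r and Spearman's rho were tested by permutation within diet (100000 resamples, two-sided) and adjusted over the 90 pairs of both sets. At 9 weeks rho was positive in 40 of 45 pairs with a median of 0.50, and 25 pairs had an adjusted p under 0.1. At 22 weeks it was positive in 40 of 45 pairs with a median of 0.29, and 13 pairs passed. The difference between these counts was not tested. Without the libraries led by a Paneth gene, 14 pairs passed at 9 weeks and 10 at 22 weeks. Of the pairs that passed, 22 of 25 at 9 weeks and 12 of 13 at 22 weeks had a positive rho within each series of mouse numbers described below. With levels centred and permuted within diet and series (21 and 22 libraries), an alternative chosen after seeing the data, 28 and 14 pairs passed, 22 and 10 of them among those above. The points of every pair share their libraries and scaling factors. Pairs of other genes were not counted. It was therefore not shown that these 10 genes deviate together more than other genes do.

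The highest rho at 9 weeks was that of Junb with Dusp1, at 0.77 (r = 0.70, adjusted permutation p = 0.0117 for rho and 0.0126 for r, n = 22). Without the 2 libraries farthest from the median of Junb its r was 0.67, and within the 3 series of mouse numbers described below rho was 0.57, 0.57 and 0.46 (7 libraries each). Fos with Jun reached a rho of 0.67 at 9 weeks (r = 0.70, adjusted permutation p = 0.0237 for rho and 0.0175 for r, n = 22) and was the highest pair at 22 weeks, with a rho of 0.62 (r = 0.57, adjusted permutation p = 0.0206 for rho and 0.0247 for r, n = 23). Their r without the 2 farthest libraries was 0.77 and 0.49. Within series, rho of Fos with Jun was 0.39, 0.86 and 0.71 at 9 weeks and 0.88, 0.77 and 0.26 at 22 weeks. The 3 exceptions at 9 weeks were Egr1 with Dusp1 (rho 0.75, and 0.64, -0.21 and 0.86 within series), Ier2 with Dusp1 (0.62, and -0.29, 0.25 and 0.82) and Junb with Ier3 (0.46, and -0.21, 0.75 and 0.54). Jun and Dusp1 passed with 7 of the other 9 genes at 9 weeks and with 5 and 6 at 22 weeks. Jund, with few reads, passed with none of the other 9 in either set, and its median rho with them was -0.04 and 0.06.

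**Figure D4:**
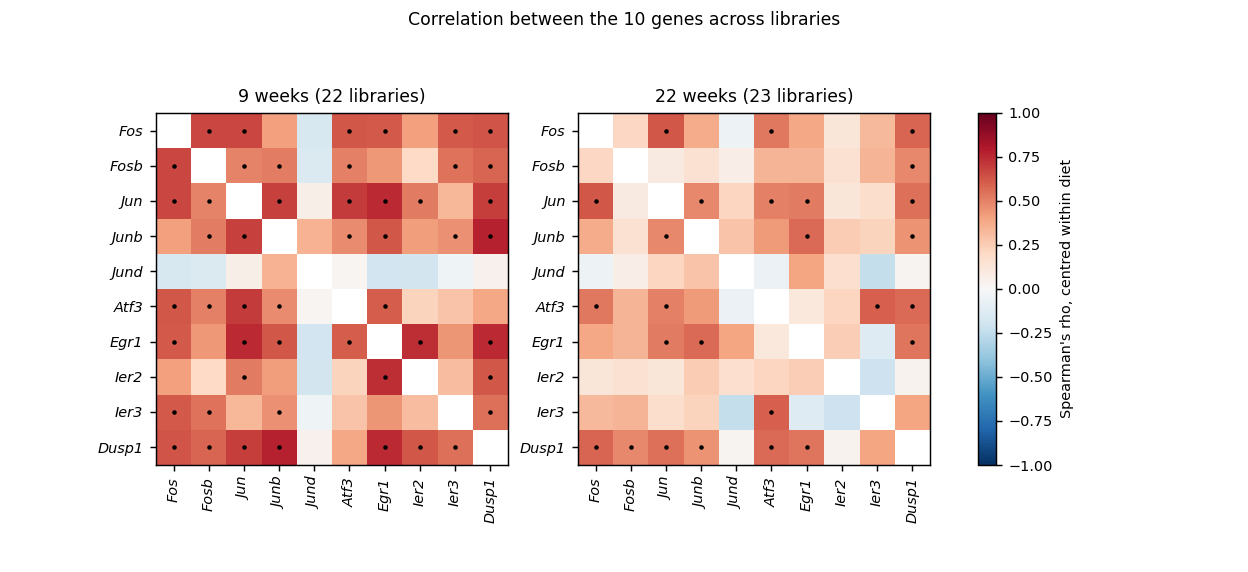
Spearman's rho (colour) between each pair of the 10 genes across libraries, centred within diet, at 9 weeks (left) and 22 weeks (right). Dots mark an adjusted permutation p under 0.1, which 25 and 13 of 45 pairs reached. The row of Jund is pale in both sets.

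Against 6 measures of the libraries (total reads, genes detected, percentage of mitochondrial reads, and tuft, T cell and enterocyte markers), 2 of 120 values of rho had an adjusted permutation p under 0.1. Both were with the percentage of mitochondrial reads at 9 weeks: Junb, with a rho of -0.75 (r = -0.78, adjusted permutation p = 0.0132 for rho and 0.0012 for r, n = 22), and Dusp1, with a rho of -0.63 (r = -0.72, adjusted permutation p = 0.0858 for rho and 0.0084 for r, n = 22). Without the 2 libraries farthest in the gene's level, r was -0.75 for Junb and -0.54 for Dusp1, and within number series rho was negative in all 3 for both genes, from -0.82 to -0.57 for Junb and from -0.68 to -0.21 for Dusp1. The rho of the other 8 genes with this measure was negative too at 9 weeks. The share of all genes with such a rho was not determined, for this measure or for the Paneth markers below. Centred within diet and series, rho was -0.70 for both, and Junb passed (adjusted permutation p = 0.0896, n = 21) while Dusp1 did not (0.153). Fos and Jun passed in its place, with rho of -0.74 and -0.70. Without the 2 libraries of under 500000 reads 0 values of rho passed at 9 weeks. By r, Jund with the tuft markers passed as well (r = 0.68, adjusted permutation p = 0.0084 for r and 0.131 for rho, n = 22), but within series its rho was at most 0.29, and centred within diet and series its r was 0.31 (adjusted permutation p = 0.618, n = 21). At 22 weeks, rho with the percentage of mitochondrial reads ranged from -0.32 to 0.42. Against the Paneth markers, a measure added after the data were seen and adjusted over its own 20 tests, rho passed at 9 weeks for Fos (0.63), Ier2 (0.52) and Egr1 (0.52), and for Jund in the negative direction (-0.52). Their r was 0.58, 0.60, 0.53 and -0.45, of which Fos and Ier2 passed. Within series rho was positive in all 3 for Fos, Ier2 and Egr1, from 0.14 (Egr1) to 0.93, but for Jund it was -0.11, 0.27 and 0.11, and centred within diet and series 0.07. Centred in that way, rho passed for Fos, Ier2, Ier3 and Dusp1 (0.58, 0.71, 0.54 and 0.59) and no longer for Egr1 (0.54, adjusted permutation p = 0.131, n = 21) or Jund. At 22 weeks none passed, and rho ranged from -0.43 to 0.28.

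The third question was whether levels followed the mouse numbers, which fall into 3 series (single digits, numbers ending in 0, and runs of other 2-digit numbers) of 7, 7 and 7 libraries at 9 weeks and 8, 6 and 8 at 22 weeks. RFD mouse 84 at 9 weeks and HFD mouse 65 at 22 weeks belonged to no series and were left out of this comparison. The labels do not tie a series to a cage or a day. With diet in the model, Ier2 differed between the series at 9 weeks (edgeR adjusted p = 0.0173) and the other 9 genes did not pass, against 18.1% of all genes tested. Ier2 levels ranged from 18.3 to 71.4 CPM with a median of 32.8 in the single digits, up to 265 CPM with a median of 98.5 in the numbers ending in 0, and from 16.7 to 178 CPM with a median of 111 in the other numbers. The highest library of the single digits, at 71.4 CPM, lay just above the lowest of the numbers ending in 0. The call held without the libraries led by a Paneth gene (adjusted p = 0.0397), where Egr1 passed as well (adjusted p = 0.0883), and without those over 25% mitochondrial reads (adjusted p = 0.0455). At 22 weeks none of the 10 genes passed, against 0.456% of all genes tested.

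The diet difference at 9 weeks was not the same in each series. For Fos the mean log2 CPM on HFD was above that on RFD by 1.93 in the numbers ending in 0 and by 1.33 in the other numbers of 2 digits, and in the single digits the difference was -0.04. For Jun the difference was 0.54 in the single digits, 1.63 in the numbers ending in 0 and 0.86 in the other numbers. For Ier2 it was 0.44, 1.06 and -1.23 in the same order, so its levels by series given above pool unlike diet differences. Each cell held 3 or 4 libraries, and the difference between the series was not tested. With the series as a term, 1 of the 10 genes, Jun, was called at 9 weeks.

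**Figure D5:**
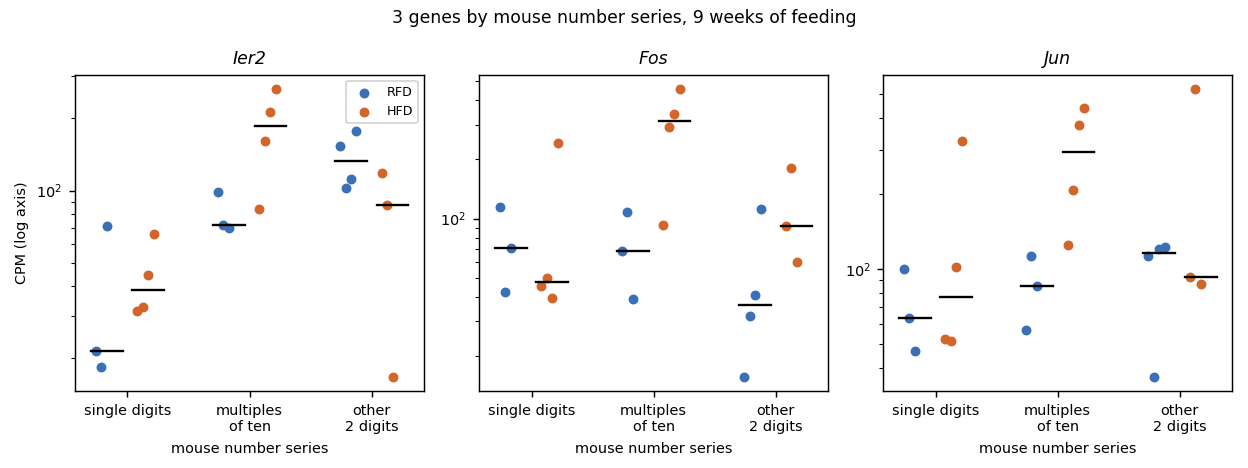
Levels of Ier2, Fos and Jun in CPM (log axis) at 9 weeks by series of mouse numbers (x axis) and diet (colour). Points are libraries and lines are medians. The median of Ier2 is lowest in the single digits on RFD, and the HFD libraries with the highest Fos are those of numbers ending in 0.

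The fourth comparison set the 22-week against the 9-week libraries, as the mean over both diets. Of the 10 genes, 3 were called, 2 lower and 1 higher at 22 weeks, against 11.5% of all genes tested. Dusp1 fell from medians of 29.3 (RFD) and 49.9 CPM (HFD) at 9 weeks to 10.7 and 17.7 CPM at 22 weeks, a log2 fold change of -1.76 (SE 0.35, edgeR adjusted p = 0.000548). Egr1 fell from 27.0 and 40.6 CPM to 11.6 and 17.7 CPM, a log2 fold change of -1.58 (SE 0.34, edgeR adjusted p = 0.00134). In both genes the ranges of the feeding times overlapped. Ier3 rose from medians of 2.97 and 2.25 CPM to 4.47 and 7.26 CPM, a log2 fold change of 1.23 (SE 0.41, edgeR adjusted p = 0.0566). Without the libraries led by a Paneth gene, Dusp1 and Egr1 were still called (log2 fold changes of -1.43 and -1.17, edgeR adjusted p = 0.0132 and 0.0318) and Ier3 was not (1.31, adjusted p = 0.101). Ier3 was also not called with the number series as a term (1.07, edgeR adjusted p = 0.138). Jun, at -0.59 (SE 0.23), missed the threshold with an edgeR adjusted p of 0.107, and was called in 4 of 7 alternatives, with adjusted p from 0.0319 (DESeq2) to 0.402 (without the libraries led by a Paneth gene, log2 fold change -0.39). Enterocyte markers (9 genes, all in every library) moved between the times too, with ranges of 3661 to 14676 CPM on RFD and 3989 to 24174 CPM on HFD (medians 10923 and 9242) at 9 weeks and of 7768 to 42108 and 13872 to 35342 CPM (medians 17945 and 21825) at 22 weeks. The stem and cycling markers ranged at 22 weeks from 4.31 to 2397 CPM on RFD and from 72.3 to 1335 CPM on HFD, with medians of 123 and 288. Their part in the difference between the times was not tested. The remaining 6 genes lay between -0.38 (Ier2) and 0.84 (Fosb), and their adjusted p ran from 0.314 upwards.

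The other genes of the same response were taken from 4 lists, of which 2 of 82 genes tested were called with diet at 9 weeks, against 3.07% of all genes, and 14 had an unadjusted p under 0.05, against 18.2%. Of 34 other immediate early genes tested (of 42 listed), Ccn1, a secreted matrix protein and target of YAP signalling, was the only one called at 9 weeks, while 8 of the 34 fell under 0.05 before adjustment. It ranged from 0 to 4.52 CPM on RFD and from 0 to 48.5 CPM on HFD, where 6 of 11 libraries lay above every RFD library, a log2 fold change of 3.14 (SE 0.82, edgeR adjusted p = 0.0691). Ccn1 rested on few reads, with medians of 2 on RFD (4 of 11 libraries at 0) and 9 on HFD. Its highest library, that of HFD mouse 80, was led by a Paneth gene. The log2 fold changes of this list had a median of -0.22 and were positive in 11 of 34, against 47.3% of all genes. Myc, a growth factor-induced transcription factor, was at 1.47 (edgeR adjusted p = 0.101), and the kinases Sik1 and Plk2 were at -1.72 and -1.08 (adjusted p = 0.127 and 0.167). Of 16 heat shock and dissociation genes tested, Hspe1, the mitochondrial co-chaperonin, was called at 9 weeks. Its libraries ranged from 17.3 to 169 CPM on RFD and from 38.7 to 291 CPM on HFD, and all 11 HFD libraries lay above the RFD median (log2 fold change 1.25, SE 0.38, edgeR adjusted p = 0.0915). Its partner Hspd1 was at 1.11 (adjusted p = 0.134). Of 12 MAP kinase feedback genes and 20 upstream kinases and factors tested, none was called in edgeR at 9 weeks, and 2 in each list had an unadjusted p under 0.05.

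At 22 weeks none of the 82 genes of these 4 lists was called by edgeR with diet, against 0.728% of all genes, and 8 had an unadjusted p under 0.05, against 10.3% of all genes. Nfkbia, the inhibitor of NF-kappa B, came nearest at -0.96 (SE 0.25, edgeR adjusted p = 0.101), and the inducible chaperone gene Hspa1a was at -2.89 (SE 0.82, adjusted p = 0.135). Between the feeding times, 9 of the 82 were called, a share near the 11.5% of all genes. Irf1, Sgk1, Dusp8 and Creb1 were higher at 22 weeks, and Klf10, Hspa8, Hspd1, Ubb and Map2k2 were lower. Dusp8, a phosphatase of the JNK and p38 kinases, rose by 1.81 on the log2 scale (SE 0.47, edgeR adjusted p = 0.0108), opposite in sign to Dusp1.

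The genes whose levels were most like the mean log2 CPM of the 10, centred within group, were ranked by the lower rho of the 2 sets (22 and 23 libraries), as a description. Ppp1r15a, a stress-induced phosphatase subunit, came first with a rho of 0.90 at 9 weeks and 0.56 at 22 weeks. Btg2 (0.68 and 0.55) and Zfp36 (0.48 and 0.57), both on the list of other immediate early genes, were second and seventh. Flcn, Ttc14, Gm15774, Tmem63b, Dcxr and Ddit4 were also among the first 10, with a lower rho of 0.46 to 0.54.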

How the data were processed

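The authors trimmed reads with cutadapt 1.15, aligned them with STAR 2.6.0 and deposited RSEM expected counts and TPM per gene (per the labels' processing notes, mouse build GRCm38). The 24 columns of libraries not described in the labels were not used. The expected counts were rounded (8.79% of those above 0 were not whole), and genes with over 5 reads in at least 6 of 45 libraries were tested. Diets were compared within each set by edgeR 4.0.16's quasi-likelihood test (R 4.3.3, legacy setting, TMM factors of the set), sets and interaction over all libraries. The standard error is the fold change over the root of F. CPM and log2 CPM (prior count 2) used TMM factors over all libraries. Fits were tested on simulated data. DESeq2 1.42.0 and limma 3.58.1 on log2(TPM + 1) were alternatives. The study's rank-based test on weighted counts was not repeated. Correlations used scipy 1.17.1.

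The members, lists and tests were chosen with earlier results of these data known. Named were the 10 genes, list genes that passed and the 4 of each list with the smallest p (some given by count only), and the 10 genes most like the members (1 of which is not reported here). Positions are from GENCODE M21. Each library came from 1 mouse, the diets share no mouse numbers, and numbers that the sets share belong to different mice, so nothing was paired. The number of libraries limits the precision.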

Additional observations from a re-analysis of the deposited data

How the results depend on the processing

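Of the 970 alternative values for the 10 genes, 883 kept their direction and their side of the threshold, and 0 of the 35 that changed direction belonged to a gene called in the main test. Most of these values belong to tests in which the gene was not called. The diet calls at 9 weeks held less often. Fos was called in 6 of 15 alternatives and in 7 of 22 fits without a single library, and Jun in 8 of 15 and 12 of 22. At 9 weeks, 0 of the 10 genes was called with limma on log2(TPM + 1) (9 genes in all) or log2(TPM + 0.1) (5), with tuft (16), T cell (34) or Paneth (15) markers as a covariate, without the libraries led by a Paneth gene (2) and without those over 25% mitochondrial reads. It was 1 of 10 without low totals (254 in all) and with the number series as a term, and from 0 to 3 when single libraries were left out. DESeq2 (1555 in all) and edgeR without the legacy setting (1604) each called 3 of 10, adding Atf3. The count over all genes was 260 without a filter on low counts, 786 with enterocyte markers and from 48 (without HFD mouse 6) to 2004 (without HFD mouse 64) when single libraries were left out. At 22 weeks none of the 10 was called under any alternative, while the count over all genes was 347 with DESeq2, 51 and 31 with limma, 163 with the number series, 184 with tuft and 46 with T cell markers, 229 without the legacy setting and from 63 (without RFD mouse 10) to 649 (without RFD mouse 1) when single libraries were left out. The interaction gave 68 genes with no filter and 0 without low totals, with the number series, without the libraries led by a Paneth gene or without those over 25% mitochondrial reads. The contrast of the sets gave 2624 with no filter and 959 without the libraries led by a Paneth gene. The number series at 9 weeks gave 5124 with no filter (2 of the 10 genes), 1138 without the high mitochondrial libraries, and 2 of the 10 genes without those led by a Paneth gene. At 22 weeks it gave 209 with RLE factors, 1175 with no filter, 113 with T cell markers and 1 without the library led by a Paneth gene. Member pairs at 9 weeks went from 25 to 14 without the libraries led by a Paneth gene, and the correlations with library measures from 2 to 0 without low totals. The 35 log2 fold changes that changed direction came from genes at -0.44 to 1.03 in the tests reported above, none of them called. At 9 weeks Junb became -0.18 and -0.19 with limma, -0.041 with enterocyte markers, -0.082 without the libraries led by a Paneth gene and -0.018 without the high mitochondrial libraries, and ran from -0.093 to 0.20 without single libraries. Jund became 0.11 with the number series, 0.49 with tuft and 0.17 with Paneth markers and 0.13 without the libraries led by a Paneth gene, and ran from -0.42 to 0.0068 without single libraries. Ier2 became -0.091 and -0.092 with limma, -0.21 with tuft and -0.62 with Paneth markers and -0.30 without the libraries led by a Paneth gene, and ran from -0.052 to 0.39 without single libraries. Egr1 and Dusp1 became -0.087 and -0.13 with Paneth markers. At 22 weeks Ier2 became 0.0093 with no filter, and Junb and Jund became 0.0044 and 0.15 with T cell markers. In the interaction Ier2 became 0.057 with the number series, and Fosb, Egr1, Ier2 and Dusp1 became 0.070, 0.39, 0.15 and 0.50 without the libraries led by a Paneth gene. Between the sets Jund became 0.010 with the number series, and Junb and Atf3 became 0.019 and 0.097 without the libraries led by a Paneth gene. The cause of these changes was not tested.

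The alternatives with Paneth markers, without libraries led by a Paneth gene, without high mitochondrial libraries, without single libraries and without the legacy setting, correlations within diet and number series, and TMM factors over all libraries, were added after seeing the data. Low totals gave no value at 22 weeks, where no library was under 500000 reads. No paired analysis was possible because the diets share no mouse numbers, and numbers that recur in both sets belong to different mice. Jund, Fosb and Ier3 had at most 24, 47 and 71 reads in a library, which limits what can be said of them.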
